A study of Homo sapiens with 9 samples.

Results

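Copper enters and leaves a human cell through a small set of membrane proteins and is passed on inside by dedicated chaperones. Here 9 genes of that system were followed through the counts of the RNA-Seq experiment: the uptake genes SLC31A1 and SLC31A2, the exporters ATP7A and ATP7B, the chaperones ATOX1 and CCS with the enzyme SOD1 that CCS loads, and the copper homeostasis factors COMMD1 and CUTC. The rule names them and sets no limit on their values. All 9 were among the 59453 gene names of the table, and all 9 passed the expression filter that left 16556 genes for testing.

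MDA-MB-231 is an established human line of triple-negative breast cancer, which lacks the estrogen and progesterone receptors and HER2 amplification. The study left the cells untreated or gave them TEPA, a copper-chelating polyamine, for 8 h or 24 h, with 3 replicates in each of the 3 groups. The sample labels give TEPA at 8 mM, while the RNA sequencing methods give 4 mM, so the dose is uncertain. A single set of untreated libraries, for which the labels give no time, served both time points, and no label says whether replicates were separate cultures, so p-values measure only the spread between these libraries.

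In the textbook scheme, cell surface reductases turn Cu(II) into Cu(I), which SLC31A1 (CTR1) carries across the plasma membrane. ATOX1 hands it to the P-type ATPases ATP7A and ATP7B, which load secreted copper enzymes in the Golgi network and move to the cell periphery to expel copper when it is in excess. CCS delivers copper to SOD1 in the cytosol, and much of the control of this system is known to act on the proteins, by their location and stability, which RNA counts do not measure.

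Total counts ranged from 34633755 to 49342659 per library. Mitochondrially encoded genes took between 3.61% and 4.02% of counts at 8 h, against 1.79% to 2.91% in untreated cells and 1.89% to 2.02% at 24 h. The calls for the copper genes numbered the same with those genes left out. That check bears mainly on the scaling, and what lay behind the larger share was not tested. Of the epithelial markers, KRT8 and KRT18 were at 328 to 438 and 246 to 308 CPM (read counts relative to library size, scaled by TMM factors), whereas KRT19 was at 0.153 to 0.528 CPM and EPCAM at 0.834 to 1.86 CPM. The mesenchymal gene VIM was at 3240 to 4430 CPM, and PGR, KRT14, CD3E and HBB had 0 counts. ESR1 had 2 to 9 counts, and ERBB2 was present at 51.9 to 87.1 CPM. Of the leukocyte and endothelial markers, CD14 and PECAM1 were lowest at 8 h, at 0.601 to 0.924 and 0.849 to 1.25 CPM, and PECAM1 was highest at 24 h, at 7.14 to 8.98 CPM, while PTPRC had at most 5 counts and CDH5 at most 3 in any library. Summed, the 2 endothelial genes were at 2.98 to 4.16 CPM in untreated cells, 0.849 to 1.31 CPM at 8 h and 7.16 to 8.98 CPM at 24 h, with 1 of the 2 above 3 counts.

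In edgeR's quasi-likelihood test, with a Benjamini-Hochberg adjusted p under 0.05 as the threshold, 5 of the 9 copper genes were called after 8 h of TEPA and 7 of 9 after 24 h. At 8 h, SLC31A2 and CCS were higher than in untreated cells and SLC31A1, SOD1 and COMMD1 were lower. At 24 h, SLC31A2 and ATP7A were higher and SLC31A1, ATP7B, ATOX1, COMMD1 and CUTC were lower, with the ATOX1 and CUTC calls resting on the settings of the fit. Fold changes were small: at 24 h COMMD1 fell by 40.8% and SLC31A2 rose by 47.2%, and the other called genes moved less.

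Against that, much of the transcriptome differed between TEPA and untreated libraries. Since the untreated cells carry no time label, TEPA and time in culture cannot be told apart here. At 8 h, 25.2% of all tested genes were called higher and 24.5% lower, beside 2 and 3 of the 9 copper genes. At 24 h the shares were 25.7% and 26.8%, beside 2 and 5 of 9. With a log2 fold change beyond 0.5 also required, 17.8% of genes were called at 8 h and 18.7% at 24 h, beside 0 and 2 copper genes (SLC31A2 and COMMD1). Untreated libraries and 8 h libraries were without overlap for 57.8% of genes, beside 5 of the 9, and untreated and 24 h libraries for 57.2%, beside 6 of the 9. The shares of copper genes called were near these, apart from the 5 of 9 that were lower at 24 h, or 3 of 9 without ATOX1 and CUTC. Their median absolute log2 fold change was 0.14 at 8 h and 0.15 at 24 h, where all genes had 0.22 and 0.24.

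**Figure D1:**
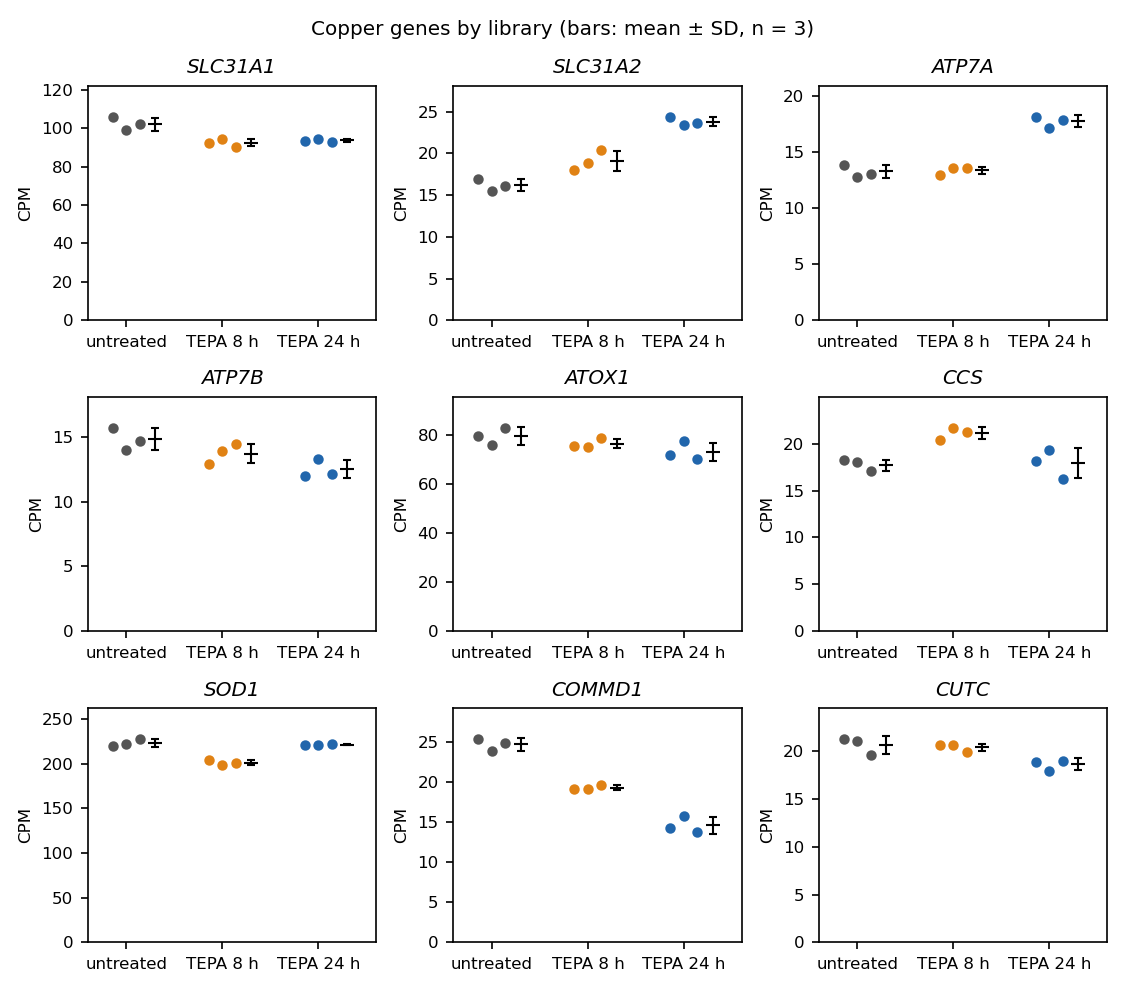
Expression of the 9 copper genes in each library, in CPM (linear axes from 0), for untreated cells and cells given TEPA for 8 h or 24 h. Points are libraries and bars give the mean ± SD (n = 3). COMMD1 steps down from 24.7 to 19.3 and 14.6 CPM and SLC31A2 steps up from 16.2 to 19.1 and 23.8 CPM without overlap between groups, and ATP7A sets its 24 h libraries apart from the other 6.

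The stretches before the start sites of SLC31A1, ATP7A and COMMD1 are shown because the first is the main uptake gene, reported as a target of the GC-box factor SP1, and the other two had the clearest changes at 24 h of the genes with an entry. Sequences are those of RefSeq on GRCh38.p14, 5′ to 3′ in the direction of the gene, from position -250 to -1 before the start site, and capitals mark the GC box (GGGCGG, either strand).
SLC31A1, chr9:113221294-113221543, plus strand: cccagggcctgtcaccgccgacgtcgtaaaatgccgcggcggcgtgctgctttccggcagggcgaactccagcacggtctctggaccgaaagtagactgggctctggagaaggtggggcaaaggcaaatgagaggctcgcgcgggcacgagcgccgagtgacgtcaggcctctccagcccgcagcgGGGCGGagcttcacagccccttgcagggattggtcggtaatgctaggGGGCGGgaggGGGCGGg
ATP7A, chrX:77910443-77910692, plus strand: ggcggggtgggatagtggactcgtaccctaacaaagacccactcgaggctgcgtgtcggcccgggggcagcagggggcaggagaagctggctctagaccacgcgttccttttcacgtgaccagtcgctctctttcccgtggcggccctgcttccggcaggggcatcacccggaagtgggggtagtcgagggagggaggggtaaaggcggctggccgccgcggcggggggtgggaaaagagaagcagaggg
COMMD1, chr2:61905424-61905673, plus strand: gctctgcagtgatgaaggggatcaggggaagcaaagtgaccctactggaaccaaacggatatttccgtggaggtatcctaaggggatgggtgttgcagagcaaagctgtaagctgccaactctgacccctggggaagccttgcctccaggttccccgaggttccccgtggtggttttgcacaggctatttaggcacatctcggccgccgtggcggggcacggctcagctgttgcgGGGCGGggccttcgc
SLC31A1 held 3 GC boxes, at positions -64, -17 and -7, COMMD1 held 1 at position -15, and ATP7A held none.

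Of the 9 copper genes, 7 had an entry in the RefSeq promoter table, and SLC31A2 and SOD1 had none. The motifs were searched on both strands in 300 bases, from 250 before the start to 50 after it. A GC box was found in 4 of the 7, where 45.0% of 35116 promoters held one. The core of the metal response element, the site of the zinc-sensing factor MTF1, was searched as TGCACNC and TGCGCNC. It was found in 4 of the 7 (ATP7B, ATOX1, CCS and CUTC), where 29.6% of all promoters held one. Both shares count every entry of a gene, while 1 entry was used for each copper gene. They are not matched for base content, and the windows of the 7 were 62.0% to 70.3% G and C. The ATP7B entry is 1 of 3 and starts 558 bases from the start of its MANE Select transcript, the representative transcript, while the other 6 entries start at theirs. MT2A, a metallothionein gene, held 8 such cores and MT1X held 4. In ATOX1 and CCS the match was a palindrome, so that each strand gave 1 of 2 overlapping matches, marked in capitals here because both are chaperone genes with the same 8 letters.
ATOX1, chr5:151758634-151758661, minus strand: caggcctctaGTGCGCACtctcggaagc
CCS, chr11:66593129-66593156, plus strand: agggccttgcGTGCGCACgcactaggag
The log2 fold changes at 8 h were 0.25 for CCS and -0.05 for ATOX1. A match gives letters in a window and not a bound site.

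SLC31A1, the high-affinity copper importer of the plasma membrane, was slightly lower at both times. It lies on chromosome 9 of hg38 (chr9:113221544-113264492, plus strand). Its level was 106, 99 and 102 CPM in untreated cells, 92.5, 94.5 and 90.4 CPM at 8 h and 93.2, 94.5 and 93 CPM at 24 h. All 6 TEPA libraries lay below the 3 untreated libraries, and the 2 times overlapped. The log2 fold change was -0.14 at 8 h (standard error 0.04, adjusted p = 0.0052) and -0.13 at 24 h (standard error 0.04, adjusted p = 0.01). These changes were smaller than those of most genes, since 64.8% of tested genes changed by more at 8 h and 71.5% at 24 h. Between 8 h and 24 h the difference was 0.02 (95% interval -0.06 to 0.10).

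SLC31A2 (CTR2), a relative of SLC31A1 that sits mainly on endosomes and lysosomes and is implicated in releasing stored copper, moved the other way. The genes are neighbours, with SLC31A2 at chr9:113150976-113164140 on the same strand and 57.4 kb between them. SLC31A2 was at 16.9, 15.5 and 16.1 CPM in untreated cells, 18, 18.9 and 20.4 CPM at 8 h and 24.4, 23.4 and 23.6 CPM at 24 h, in 3 groups that did not overlap. It rose by 0.24 on the log2 scale at 8 h (standard error 0.06, adjusted p = 0.0052) and by 0.56 at 24 h (standard error 0.06, adjusted p = 1.8e-06), and the 24 h libraries were 24.8% above those at 8 h (adjusted p = 0.00036). FKBP15, whose exons overlap those of SLC31A2 on the opposite strand, had log2 fold changes of 0.25 and -0.09 (adjusted p = 8.8e-05 and 0.08), and reads were counted by strand.

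Within a library, where scaling plays no part, there were 6.26, 6.38 and 6.31 SLC31A1 counts for each SLC31A2 count in untreated cells. The ratio was 5.15, 5 and 4.44 at 8 h and 3.82, 4.05 and 3.95 at 24 h. The ratio was thus lower in every 8 h library than in any untreated library, and lower again in every 24 h library.

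ATP7A, the copper ATPase that supplies cuproenzymes in most tissues outside the liver and whose loss causes Menkes disease, had a late change. It lies at chrX:77910690-78050395 on the plus strand. Its level was 13.9, 12.8 and 13.1 CPM in untreated cells, 13, 13.6 and 13.6 CPM at 8 h and 18.2, 17.2 and 17.9 CPM at 24 h. The 8 h libraries lay within the untreated range and the 24 h libraries above all others. No difference was called at 8 h (log2 fold change 0.02, 95% interval -0.12 to 0.15, adjusted p = 0.85). At 24 h ATP7A was higher by 34.2% (log2 fold change 0.42, standard error 0.06, adjusted p = 2.7e-05), and the rise from 8 h to 24 h was itself called (0.41, adjusted p = 3.8e-05). PGK1, with exons over those of ATP7A on the same strand, went the other way, at -0.33 and -0.34 (adjusted p = 7e-06 and 3.6e-06), and how reads in the shared exons were assigned was not tested.

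ATP7B, the related ATPase that serves biliary copper excretion and is mutated in Wilson disease, was lower at 24 h. It lies at chr13:51930436-52012125 on the minus strand. Libraries held 15.7, 14 and 14.7 CPM without TEPA, 12.9, 13.9 and 14.4 CPM at 8 h and 12, 13.3 and 12.1 CPM at 24 h, so that the 8 h libraries overlapped both other groups. The fitted change was -0.11 at 8 h (95% interval -0.26 to 0.05, adjusted p = 0.24) and -0.24 at 24 h (standard error 0.07, adjusted p = 0.0093). The step from 8 h to 24 h was not called (-0.14, 95% interval -0.29 to 0.02).

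ATP7A counts went from below to above ATP7B counts. For each ATP7B count there were 0.884, 0.917 and 0.889 ATP7A counts without TEPA, 1.01, 0.976 and 0.945 of them at 8 h and 1.51, 1.3 and 1.48 at 24 h. Set against the importer, ATP7A gave 0.13 ± 0.00153 counts per SLC31A1 count in untreated cells, 0.145 ± 0.00458 at 8 h and 0.19 ± 0.00681 at 24 h (SD, n = 3). Both ratios were higher in each TEPA library than in any untreated one, at 8 h and at 24 h, and the ratios were not tested.

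**Figure D2:**
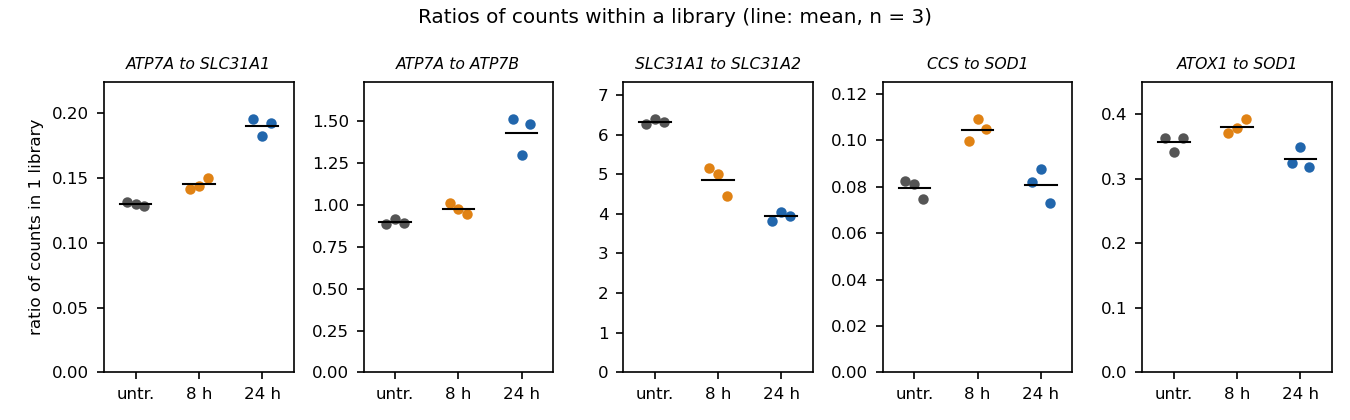
Ratios of counts of gene pairs within each library (linear axes from 0, no unit), for untreated cells and TEPA at 8 h and 24 h. Points are libraries and lines the mean of 3. The ratio of ATP7A to ATP7B goes from 0.897 to 0.977 and 1.43, that of SLC31A1 to SLC31A2 from 6.32 to 4.86 and 3.94, and that of CCS to SOD1 is raised at 8 h (0.105) and back at 0.0809 at 24 h.

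ATOX1, the chaperone that carries copper to both ATPases, had a call at 24 h that many of the alternative fits did not make. It lies at chr5:151742316-151772532 on the minus strand. Its level was 79.7, 75.8 and 83 CPM in untreated cells, 75.7, 75.1 and 78.8 CPM at 8 h and 71.7, 77.4 and 70.4 CPM at 24 h, and the groups overlapped at both times. At 8 h the log2 fold change was -0.05 (adjusted p = 0.35), and at 24 h it was -0.12 (standard error 0.05, adjusted p = 0.042). The 24 h call was lost in 10 of 14 alternative fits, among them DESeq2 (adjusted p = 0.068) and the fits without untreated replicate 1 or 3 or without TEPA 24 h replicate 1 or 3 (0.055 to 0.19). G3BP1, whose exons overlap those of ATOX1 on the opposite strand, had changes of -0.22 and -0.40 (adjusted p = 0.002 and 6.9e-06).

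CCS, which inserts copper into SOD1, was higher at 8 h and was not called against untreated cells at 24 h. It lies at chr11:66593153-66606019 on the plus strand. The values were 18.2, 18 and 17.1 CPM in untreated cells, 20.4, 21.7 and 21.2 CPM at 8 h and 18.1, 19.3 and 16.2 CPM at 24 h. The 8 h libraries stood above all others, while the 24 h libraries spread on both sides of the untreated range. CCS rose by 18.7% at 8 h (log2 fold change 0.25, standard error 0.07, adjusted p = 0.0062) and fell by 0.23 on the log2 scale from 8 h to 24 h (adjusted p = 0.0078). Against untreated cells the 24 h difference was 0.01 (95% interval -0.13 to 0.16).

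SOD1, the cytosolic copper-zinc superoxide dismutase, showed the mirror image of its chaperone. It lies at chr21:31659666-31668931 on the plus strand. SOD1 was at 220, 222 and 228 CPM in untreated cells, 204, 199 and 201 CPM at 8 h and 221, 221 and 222 CPM at 24 h, so that the 8 h libraries were the lowest and the 24 h libraries lay among the untreated. It fell by 9.93% at 8 h (log2 fold change -0.15, standard error 0.03, adjusted p = 0.0014) and rose by 0.14 from 8 h to 24 h (adjusted p = 0.0023). At 24 h against untreated cells it differed by -0.01 (95% interval -0.08 to 0.06). Among the other superoxide dismutases, mitochondrial SOD2, which uses manganese, did not pass at 8 h (0.07, adjusted p = 0.17) and rose by 0.41 at 24 h (adjusted p = 4.7e-07). Extracellular SOD3 was not called (-0.21 and -0.02, adjusted p = 0.088 and 0.89).

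The counts of CCS per SOD1 count were 0.0826, 0.0811 and 0.0749 in untreated cells, 0.0999, 0.109 and 0.105 at 8 h and 0.082, 0.0876 and 0.073 at 24 h. The ratio was raised in each 8 h library above all 6 others. For ATOX1 against SOD1 the means were 0.356, 0.38 and 0.331, with 8 h libraries from 0.371 to 0.392 above and 24 h libraries overlapping the untreated range of 0.342 to 0.364.

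COMMD1, a protein of endosomal sorting that binds ATP7A and ATP7B and whose loss causes hepatic copper overload in dogs, had the largest change of the 9 genes at either time. It lies at chr2:61888724-62147247 on the plus strand. Untreated libraries held 952, 1088 and 980 COMMD1 counts, 8 h libraries 766, 731 and 720, and 24 h libraries 723, 683 and 495. After scaling, these were 25.4, 23.8 and 24.9 CPM, then 19.1, 19.1 and 19.6 CPM, then 14.2, 15.8 and 13.8 CPM, and no groups overlapped. In bulk RNA, fewer cells that express a gene and less RNA per cell cannot be told apart. COMMD1 fell by 21.8% at 8 h (log2 fold change -0.36, standard error 0.06, adjusted p = 0.00018) and fell by 40.8% at 24 h (-0.76, standard error 0.06, adjusted p = 7.5e-08), and the further fall from 8 h to 24 h was called (-0.40, adjusted p = 6.3e-05). Of all tested genes, 33.4% changed by more than COMMD1 at 8 h and 12.3% at 24 h. In the 14 alternative fits the 24 h change stayed between -0.82 and -0.72.

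CUTC, a cytosolic copper-binding protein of a family named after a bacterial copper tolerance gene, was near its untreated level throughout. It lies at chr10:99702558-99756134 on the plus strand. The values were 21.3, 21 and 19.6 CPM in untreated cells, 20.6, 20.6 and 19.9 CPM at 8 h and 18.9, 17.9 and 19 CPM at 24 h. At 24 h the libraries lay below all others by a small margin, with a log2 fold change of -0.15 (standard error 0.06, adjusted p = 0.039), against -0.02 at 8 h (adjusted p = 0.82). The 24 h call was lost in 11 of 14 alternative fits, DESeq2 included (adjusted p = 0.084), and in each fit that left out 1 library other than untreated replicate 3 (0.051 to 0.13). ENTPD7, which shares exons with CUTC on the same strand, was not called at either time (0.06 and -0.08).

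**Figure D3:**
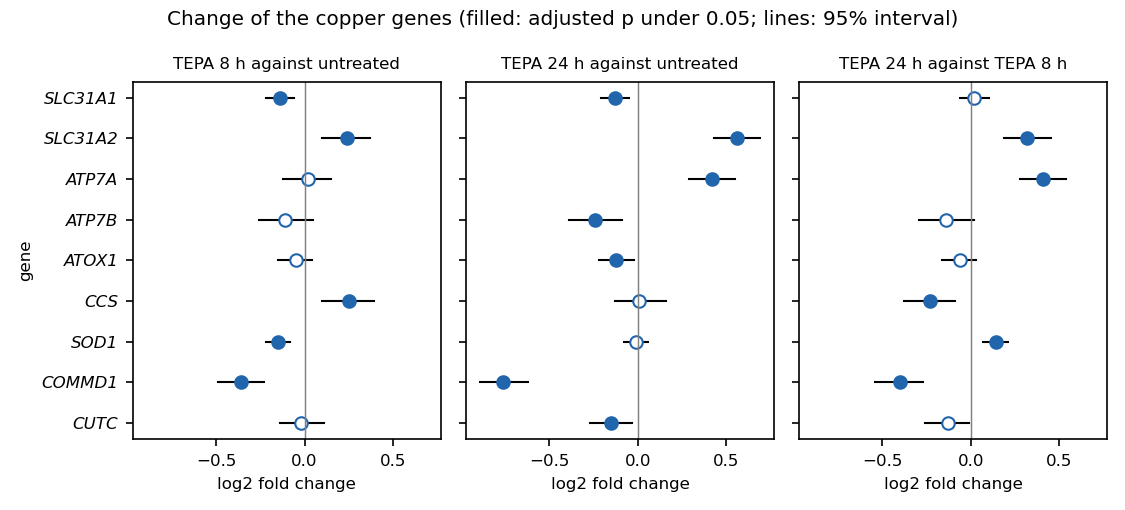
Log2 fold change of each copper gene in the 3 comparisons, with 95% intervals from edgeR's quasi-likelihood fit of all 9 libraries and filled points for genes called. The 8 h and 24 h panels share the untreated libraries. COMMD1 lies farthest to the left in all 3 panels (-0.36, -0.76 and -0.40), and SLC31A2 and ATP7A lie to the right at 24 h (0.56 and 0.42).

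The comparison of 24 h with 8 h shares no untreated library, and it tests whether the times differ. Here 26% of all genes were called higher and 28.8% lower, beside 3 copper genes higher (SLC31A2, ATP7A and SOD1) and 2 lower (CCS and COMMD1). None of the 9 passed the limit of 0.5 on the log2 scale that 21.2% of all genes passed. The libraries of the 2 times did not overlap for 6 of the 9, against 62% of all genes, CUTC being the sixth (-0.13, adjusted p = 0.065). The genes thus fell into different courses: COMMD1 and SLC31A2 moved further in one direction, ATP7A moved after 8 h, CCS and SOD1 were displaced at 8 h and returned, and SLC31A1 stayed at its 8 h level within an interval of -0.06 to 0.10.

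Levels can be compared between genes only per length, and were set in CPM per kilobase of the MANE Select transcript. In untreated cells SOD1 was highest, at 249 CPM per kilobase, followed by ATOX1 at 169, COMMD1 at 35.5, SLC31A1 at 21.5, CCS at 16.6, CUTC at 15.5, SLC31A2 at 9.39, ATP7B at 2.24 and ATP7A at 1.56, with no overlap between neighbours in the order. At 24 h COMMD1 (21) overlapped SLC31A1 (19.7), SLC31A2 (13.8) overlapped CUTC (14), and ATP7A (2.09) stood above ATP7B (1.89). The order depends on the length used. With the union of all annotated exons, SLC31A1 (19.9) came before ATOX1 (15.2) in untreated cells, COMMD1 (11.2) overlapped CUTC (11.5), and the levels of ATP7A and ATP7B (0.632 and 0.662) overlapped at 24 h.

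**Figure D4:**
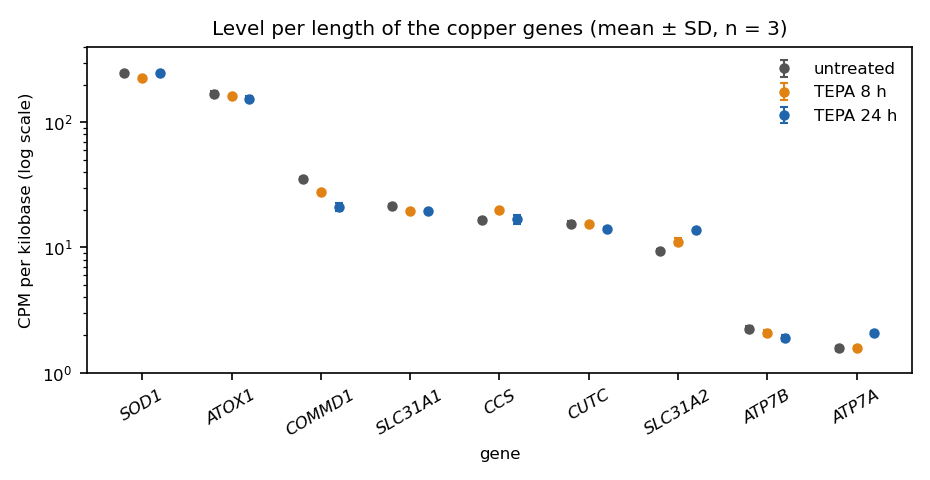
Level of each copper gene in CPM per kilobase of the MANE Select transcript (log axis), as mean ± SD of 3 libraries in each group. SOD1 and ATOX1 lie between 155 and 249 CPM per kilobase in all groups, and both copper ATPases lie at or below 2.24 CPM per kilobase.

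The 9 genes had between 436 and 11275 counts in any library, which gives a counting error of 0.942% to 4.79%, and their coefficients of variation within a group were 0.201% to 8.92%. For some genes the spread was no larger than counting error, as for COMMD1 at 8 h, with 1.39% against 3.61% to 3.73%. Rows of the pseudogenes SLC31A1P1, SOD1P1, SOD1P2, SOD1P3 and ATP7BP1 had 0 or 1 counts in every library. Summed, the 9 genes took 514, 493 and 512 CPM (unscaled) without TEPA, 468, 467 and 468 CPM with 8 h of it and 508, 509 and 506 CPM with 24 h.

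COMMD1 acts with other COMMD proteins, CCDC22 and CCDC93, and the retriever subunits VPS35L, VPS26C and VPS29, which together return cargo, ATP7A among it, from endosomes. All 14 partners were tested. At 8 h, 8 of them were lower and 1 was higher (median log2 fold change -0.14), and at 24 h 9 were lower and 2 were higher (median -0.15), where the median of all genes was 0 at both times. Of all genes, 24.5% were lower and 25.2% higher at 8 h, and 26.8% and 25.7% at 24 h. COMMD7 changed as far as COMMD1, at -0.31 and -0.77 (adjusted p = 5e-04 and 4.7e-08), with 33.8 ± 0.322 CPM in untreated cells and 19.7 ± 1.82 CPM after 24 h (SD, n = 3). COMMD10 was lower at both times (-0.46 and -0.32, adjusted p = 0.00028 and 0.0035), and CCDC22 was lower at 24 h (-0.35, adjusted p = 0.00027) with a change of 0.00 at 8 h. CCDC93 was the exception in direction at both times, at 0.42 and 0.27 (adjusted p = 4e-06 and 0.00025), and COMMD9 was higher at 24 h (0.22, adjusted p = 0.0015).

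**Figure D5:**
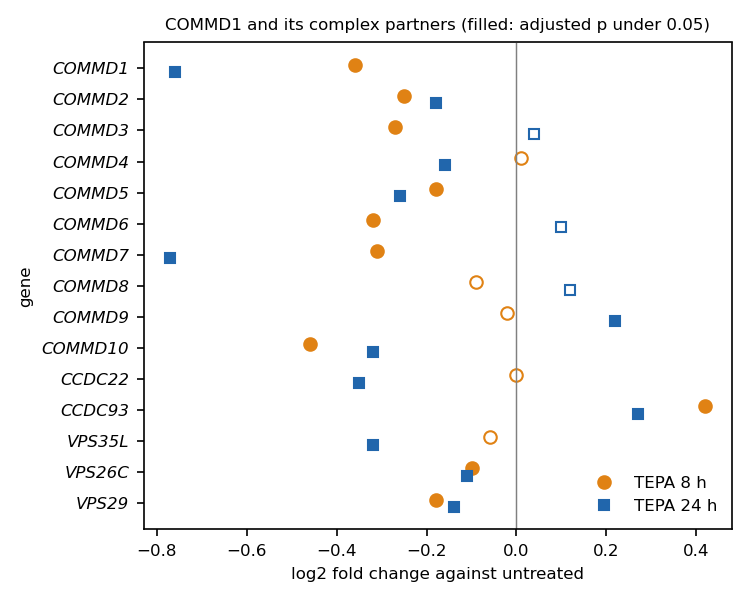
Log2 fold change against untreated cells of COMMD1 and its 14 complex partners at 8 h (circles) and 24 h (squares), with filled symbols for genes called by edgeR at an adjusted p under 0.05. COMMD1 (-0.76) and COMMD7 (-0.77) lie farthest to the left at 24 h, and CCDC93 lies to the right of zero at both times (0.42 and 0.27).

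Of the reductases and the carrier SLC11A2 that stand beside SLC31A1 in uptake, 5 of 6 were tested and STEAP4 had 0 counts. At 8 h STEAP1 was higher (0.39, adjusted p = 0.00032) and STEAP3 and CYBRD1 were lower (-0.13 and -0.65, adjusted p = 0.012 and 8.9e-07). At 24 h STEAP3, a ferrireductase of endosomes, was lower by 0.56 on the log2 scale, at 92.6 ± 4.06 CPM against 137 ± 4.36 CPM (SD, n = 3), and STEAP2 was lower too (-0.38, adjusted p = 0.0035). The 24 h value of CYBRD1, a plasma membrane reductase, was not called (0.13, adjusted p = 0.09).

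Among 11 genes of exporter trafficking and control, 1 was higher and 4 lower at 8 h, and 4 were higher and 2 lower at 24 h (medians -0.04 and 0.09), where 25.2% of all genes were higher and 24.5% lower at 8 h and 25.7% and 26.8% at 24 h. SP1, the GC-box factor named above, was at 129 ± 3.03 CPM in untreated cells and rose at both times, to 154 ± 0.91 and then 157 ± 5.51 CPM (SD, n = 3, log2 fold changes 0.25 and 0.28, adjusted p = 4.1e-05 and 1.2e-05), while SLC31A1 was at -0.14 and -0.13. GLRX, the glutaredoxin reported to bind both copper ATPases, was lower at both times (-0.75 and -0.54, adjusted p = 1.9e-08 and 2.8e-07). CLU, a chaperone that directs the ATPases to degradation, was lower at 8 h (-0.34, adjusted p = 0.001) with -0.17 at 24 h (adjusted p = 0.055). AP1S2, a subunit of the adaptor of Golgi sorting, was higher at 24 h (0.25, adjusted p = 0.033).

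Of 14 genes of copper buffering, 7 were tested, and 4 were lower at 8 h and 5 at 24 h, with 1 higher at each time (medians -0.26 and -0.51). The shares of all genes were 24.5% and 26.8% for lower and 25.2% and 25.7% for higher calls at these times, which also stand beside the counts of secretory enzymes. The tested metallothionein genes, which encode metal-binding proteins, were lower at both times, namely MT1E (-1.30 and -2.39), MT1X (-1.06 and -1.84) and MT2A (-1.15 and -1.60), and GCLC, for the first enzyme of glutathione synthesis, was at -0.26 and -0.51. The other 7 were metallothionein genes with at most 10 counts in any library. Their inducer MTF1 was not called at 8 h (-0.03, adjusted p = 0.65) and was the gene of the list that was higher at 24 h (0.22, adjusted p = 0.00059). For the 16 secretory enzymes that take copper from ATP7A and ATP7B, 10 were tested, with 2 higher and 6 lower at 8 h (median -0.44) and 4 higher and 2 lower at 24 h (median 0.01). The amine oxidase genes AOC2 (1.34 and 1.04) and AOC3 (1.53 and 1.11) were higher at both times, and the lysyl oxidase genes LOX (-0.78 and -0.75) and LOXL1 (-1.36 and -2.40) were lower. At 8 h LOXL2 (-0.56, adjusted p = 6.9e-07) and LOXL4 (-0.76, adjusted p = 1.5e-05) were lower too, and LOXL3 was not called (0.33, adjusted p = 0.056). The lysyl oxidase genes did not move together at 24 h. There LOXL4 (0.70, adjusted p = 8.7e-06) and LOXL3 (0.34, adjusted p = 0.044) were higher and LOXL2 was not called (0.03, adjusted p = 0.67).

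The genes whose log2 CPM followed the copper genes most closely over the 9 libraries are given as a description, since the libraries form 3 groups and any gene with a like order of groups scores high. For COMMD1 these were CAVIN3, CCDC8 and SORBS3 (Pearson's r 0.997, 0.996 and 0.996). For SLC31A2 they were KLHL36, ARRDC2 and NBEA (0.987, 0.986 and 0.984), and for ATP7A they were USP49, ZNF740 and NAA38 (0.994, 0.993 and 0.993). The 3 closest genes of each of the other 6 had an r between 0.935 and 0.986.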

How the data were processed

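Libraries of MDA-MB-231 RNA were sequenced by the study, 3 for each of 3 groups. Per its methods, the authors used FastQC for read quality, HISAT2 for alignment (hg38) and featureCounts for pairs in exons, by strand and gene name. The deposited values are raw counts, not normalized, and no column was left out (0).

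Genes were kept by filterByExpr of edgeR 4.0.16 (minimum count 10), and TMM factors ran from 0.978 to 1.039. All 9 libraries were fitted in 1 quasi-likelihood model in R 4.3.3, and Benjamini-Hochberg adjustment covered 16556 genes. The biological coefficient of variation was 0.0481. Intervals are at 95%. With 3 libraries against 3, an exact permutation test cannot give a two-sided p under 0.1 and was not used. The alternatives were DESeq2 1.42.0, RLE or upper-quartile factors, no filter, at least 10 counts in every library, only the groups compared, a replicate block, mitochondrial genes left out, a fold limit of 0.5, and each library left out in turn. The union of all exons as length was tried later, with the data seen. The procedure was tested on simulated counts.

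The genes and pathway lists were chosen with earlier results of these data known. All copper genes were named, and from each list at most 4 called genes with the largest change and a mean of at least 1 CPM. MTF1, COMMD9, SOD3, SLC11A2, LOXL2, LOXL3 and LOXL4, the genes that overlap others and the markers named beside them were added after their values were seen. Positions and lengths are from GENCODE on hg38, and promoter sequences from RefSeq. The authors counted on another annotation of the same build. A marker of the list is not reported here. The study's other cell lines and assays were not analysed here.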

Additional observations from a re-analysis of the deposited data

Results flagged for a closer look

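Of the 9 copper genes, 5 differed between the 2 times of TEPA, by edgeR's quasi-likelihood test of 24 h against 8 h, which is the test of that difference itself. The log2 fold change was 0.32 for SLC31A2 (adjusted p = 0.00036), 0.41 for ATP7A (3.8e-05), -0.23 for CCS (0.0078), 0.14 for SOD1 (0.0023) and -0.40 for COMMD1 (6.3e-05). In each of these genes the 3 libraries at 24 h lay on one side of the 3 at 8 h. Of all genes, 26% were called higher and 28.8% lower in the same comparison and 62% did not overlap, so these numbers are near those of genes in general. Mitochondrially encoded genes took a larger share of counts at 8 h (3.61% to 4.02%) than at 24 h (1.89% to 2.02%). With them left out, the same number of copper genes, 5, was called. Leaving them out bears mainly on the scaling, and the reason for the larger share was not tested. Groups of 3 are too small for the check for single outlying libraries.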

How the results depend on the processing

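The 9 copper genes in 3 comparisons were fitted under 14 alternatives each. Of these 378 values, 357 stayed on their side of the threshold, 21 lost the call and 0 called values changed sign. Among values not called, ATP7A at 8 h (-0.02 to 0.05), CCS at 24 h (-0.04 to 0.08) and SOD1 at 24 h (-0.03 to 0.01) took either sign. All 21 were ATOX1 (10) and CUTC (11) at 24 h, where alternatives gave -0.16 to -0.09 (adjusted p 0.011 to 0.19) and -0.19 to -0.12 (0.027 to 0.13). Copper genes called at 24 h numbered 7, and 6 with RLE factors or no filter, 5 with upper-quartile factors, DESeq2, the strict filter or only the groups compared, and 5 to 6 without 1 library. At 8 h and for 24 h against 8 h the number was 5 under each of these. With a fold limit of 0.5, it was 0 at 8 h, 2 at 24 h and 0 between the times, since fewer genes move that far. Of same-numbered pairs of libraries, 0 of 9 had a correlation of deviations over 0.1 (-0.08 to 0.038). With 3 libraries in a group this cannot show whether replicate numbers mark shared cultures or handling. The replicate block gave 5 calls at 8 h, 5 at 24 h and 5 between the times. Other calls came closest to the threshold for ATP7B at 24 h (adjusted p up to 0.047), CCS between the times (0.043), SLC31A2 at 8 h (0.042) and SLC31A1 at 24 h (0.04). Other scalings shifted the median gene by at most 0.026 on the log2 scale. Per-kilobase levels depend on the length used. The lowest count of a copper gene was 436, and counting error (up to 4.79%) was as large as the replicate spread for several of them, which limits how small a change could be called.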
